A study of Mus musculus with 9 samples.

Results

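The 9 genes described here belong to nerve guidance and support and were measured in sorted limb cells of mouse embryos. They are Slit2, Slit3, Robo1, Robo2, Ntn1, Unc5c, Gdnf, Ntf3 and Bdnf. They were taken by symbol from an expression table of 24102 rows, and all 9 were found, 1 row each. RNA was sequenced from GFP-positive cells of dissociated E12.5 limbs. Mutant cells were Shox2(Cre/-);Rosa(mTmG), with Cre recombinase at 1 allele of Shox2 and a mutant second allele. Control cells were Shox2(Cre/+);Rosa(mTmG), with the same Cre allele and a normal second allele. The Cre allele and the reporter were thus common to both groups, and cells turned green where Cre made from the Shox2 locus had been active, so both groups are cells with a history of Shox2 expression. The table has 3 mutant and 3 control columns, 1 of each from litters 1, 2 and 3. The labels give 2 mutant samples for litter 1, and the sources used here do not say which of them its mutant column holds. How many embryos were pooled is not given, and 2 whole limbs of the series were not analysed here.

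Limb nerves grow in along tissue that both steers and feeds them. Slit proteins are secreted cues that repel growth cones through Robo receptors. Netrin 1 is a secreted cue that attracts through Dcc and repels through Unc5 receptors. Gdnf acts on motor axons through Gfra1 and Ret, while the neurotrophins Ntf3 and Bdnf keep sensory and motor neurons alive through Trk receptors and the shared receptor Ngfr. Limb mesenchyme makes several of these cues, and Slit, Robo and Unc5 genes are also expressed by mesenchymal cells themselves.

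Values are taken as FPKM, reads per transcript length and sequencing total, so levels can be set beside each other between genes. The litters may have been normalised separately, which bears on levels set across litters and not on those within one. In the controls the 9 genes fell into 3 tiers that did not overlap. Ntn1 (45.4 to 68.8 FPKM) and Robo1 (42.1 to 66.7 FPKM) were the highest. Slit3 (19.2 to 31.0 FPKM), Robo2 (16.0 to 27.0 FPKM), Slit2 (14.9 to 22.2 FPKM), Unc5c (10.1 to 27.1 FPKM) and Ntf3 (14.9 to 21.7 FPKM) lay between, and neighbours in that order overlapped. Gdnf (3.14 to 3.45 FPKM) and Bdnf (2.14 to 3.65 FPKM) were lowest. The control mean of Ntn1 exceeded that of 89.5% of the 12314 tested rows, and that of Bdnf exceeded 13.2%. All 9 genes passed the filter for testing, which asked for 3 or more columns at 1 FPKM or above.

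The mutated gene itself was lower in every mutant. Shox2, which encodes a homeodomain protein needed for proximal limb bones, was at 16.7, 18.3 and 96.9 FPKM in the mutants of litters 1, 2 and 3, against 217, 222 and 210 FPKM in the controls. The litter 3 mutant thus had far more Shox2 signal than the other mutants. The log2 change was -2.75 (SE 0.64; limma adjusted p = 0.803, and 0.0998 in a fit blocked by litter), and which part of the gene the mutant allele lacks was not looked at. The cells carried limb mesenchyme markers: 11 of 12 listed genes were in the table, none under 2.83 FPKM in any column. Their sums were 1691, 2337 and 2206 FPKM in mutants and 2278, 2620 and 2288 FPKM in controls. Prrx1, a homeobox gene of limb mesenchyme, was at 121, 201 and 246 FPKM in mutants and 106, 176 and 184 FPKM in controls. The listed genes did not move together. Prrx1 and Meis2 were higher in the mutant of every litter, while Twist2, Col1a1 and Col3a1 were lower in every litter. In litter 2, 6 of the 11 were higher in the mutant and 5 lower.

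Mutants and controls were compared with limma on log2(FPKM + 1), a scale on which changes of low genes are understated, with Benjamini-Hochberg adjustment over all tested rows. Litter numbers pair the columns, so a second fit had litter as a block. At an adjusted p under 0.05, limma called 0 of the 9 genes and 0% of all tested rows, and with the litter block again 0 of the 9 and 0% of rows. With column weights limma called 15 rows, none of them a member. At an unadjusted p under 0.05 limma called 0 of the 9, against 3.57% of rows. With the block it called 2 of the 9, Robo2 and Unc5c, against 11.6% of rows. The mutant and control columns of all 9 genes overlapped, whereas in 4.22% of rows every mutant column was above every control column and in 5.03% every one was below. With 3 columns per group, the smallest two-sided p of an exact permutation test is 0.1, and 0.25 if labels are exchanged only within litters.

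**Figure D1:**
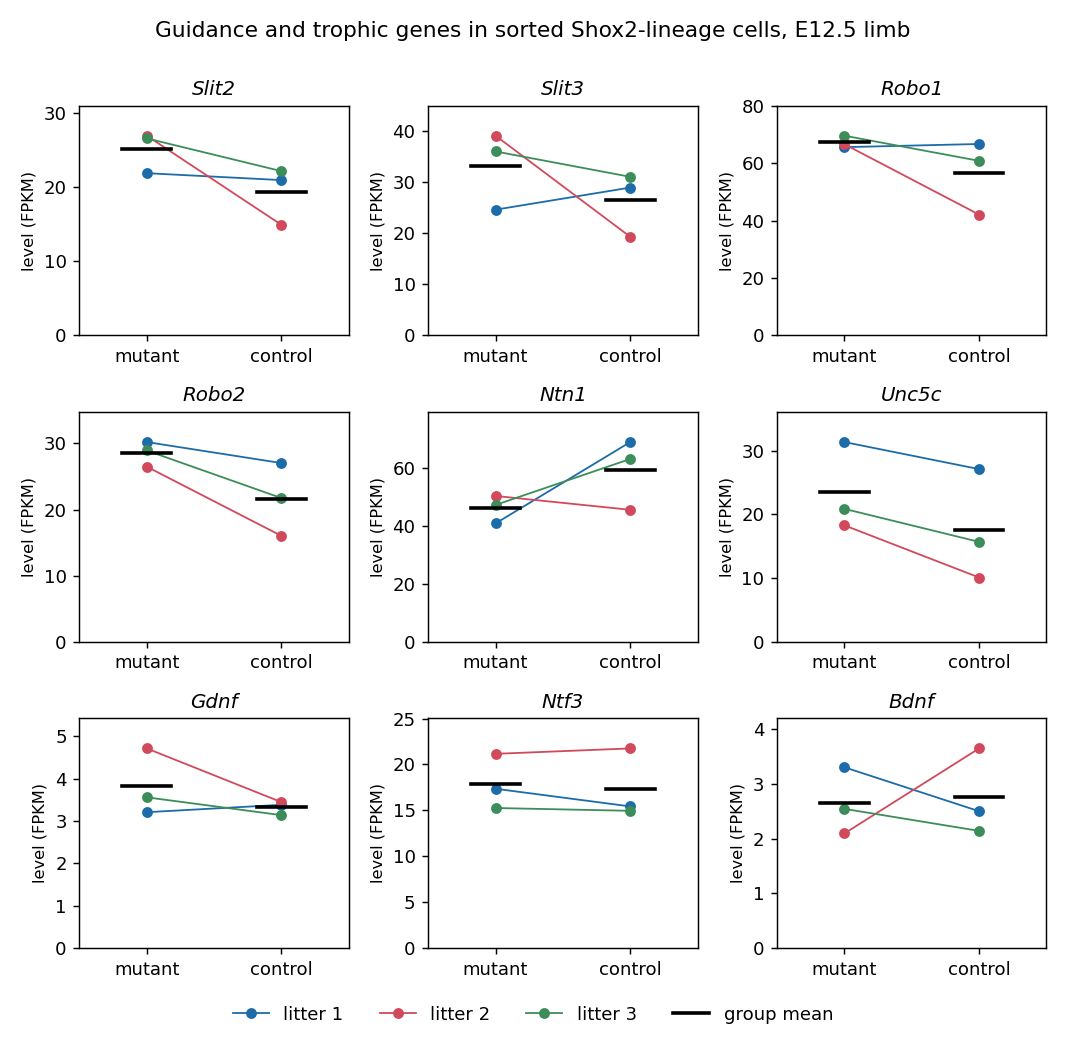
Level of each gene in FPKM (vertical axes from 0) in mutant and control columns, with a line joining the columns of a litter and a black bar at the mean of 3 columns. For Slit2, Slit3, Robo1, Robo2 and Unc5c the lowest of the 6 values is the control of litter 2.

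Of the ligands that repel, Slit2 was at 21.9, 27.0 and 26.6 FPKM in the mutants of litters 1, 2 and 3, against 21.0, 14.9 and 22.2 FPKM in the controls. It was higher in the mutant of 3 of 3 litters, but by little in litter 1, and the lowest mutant lay below the highest control. The log2 change was 0.38 (SE 0.19; limma adjusted p = 1.00, or 0.429 with the litter block). Slit3, the second Slit gene of limb mesenchyme here, was at 24.5, 39.0 and 35.9 FPKM in mutants, against 28.9, 19.2 and 31.0 FPKM in controls. Its mutant was lower than its control in litter 1 and well above it in litter 2, where the log2 difference was 0.98. Over the 3 litters the log2 change was 0.32 (SE 0.25; limma adjusted p = 1.00, or 0.549 with the block). Slit1 did not pass the filter, at 0.236 to 0.848 FPKM in mutants and 0.269 to 0.494 FPKM in controls.

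Of the Slit receptors, Robo1 was at 65.6, 66.6 and 69.6 FPKM in mutants, against 66.7, 42.1 and 60.8 FPKM in controls. The mutant columns were close together, and the spread lay in the controls. Its log2 change was 0.27 (SE 0.19; limma adjusted p = 1.00, or 0.487 with the block). Robo2 was at 30.2, 26.5 and 28.9 FPKM in mutants, against 27.0, 16.0 and 21.7 FPKM in controls. It was higher in the mutant of 3 of 3 litters, with log2 differences of 0.16, 0.69 and 0.40, and only the litter 1 control reached into the mutant range. Its log2 change was 0.41 (SE 0.20; limma adjusted p = 1.00, or 0.346 with the block). Robo3 and the endothelial receptor Robo4 did not pass the filter, and no column of either reached 1 FPKM.

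Ntn1, the netrin ligand, had the lowest log2 change of the 9 genes. It was at 40.7, 50.2 and 47.1 FPKM in mutants, against 68.8, 45.4 and 62.9 FPKM in controls. The mutant was lower than its control in litters 1 and 3 and slightly higher in litter 2, with log2 differences of -0.74, 0.14 and -0.41. In litter 1, 0.715% of tested rows had a lower difference, and in litters 2 and 3 the shares were 67.4% and 2.99%. Some other members lay near the opposite end. The share was 97.4% for Slit3 in litter 2 and 96.0% for Robo2 in litter 3. Its log2 change was -0.34 (SE 0.19; limma adjusted p = 1.00, or 0.476 with the block). Without the litter 2 pair it was -0.58 and passed (limma adjusted p = 0.00525 with the block), a fit of 4 columns that called 534 of 12314 rows. Over all alternatives run, the adjusted p of Ntn1 ran from that value to 1.00. Unc5c, a netrin receptor that mediates repulsion, was at 31.4, 18.3 and 20.9 FPKM in mutants, against 27.1, 10.1 and 15.7 FPKM in controls. Litter 1 stood above the others in both groups, so the groups overlapped although the mutant was higher in 3 of 3 litters, by 0.20, 0.80 and 0.39 on the log2 scale. Its mean log2 change was 0.46 (SE 0.37, or 0.14 with the block; limma adjusted p = 1.00, or 0.322 with the block).

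The order at the top of the set differed between groups: Robo1 was above Ntn1 in 3 of 3 mutants and Ntn1 above Robo1 in 3 of 3 controls. Ratios within a column were computed for all 36 pairs of the 9 genes, which was decided with the values in view. Ntn1 over Slit2 was 1.86, 1.86 and 1.77 in mutants and 3.28, 3.04 and 2.84 in controls. Ntn1 over Slit3 was 1.66, 1.29 and 1.31 in mutants and 2.38, 2.36 and 2.03 in controls. Ntn1 over Robo1 was 0.621, 0.753 and 0.677 in mutants and 1.03, 1.08 and 1.03 in controls. Those 3 ratios and Ntn1 over Robo2 were lower in every mutant than in any control, and no other of the 36 pairs was without overlap. Ntn1 over Robo2 was 1.35, 1.90 and 1.63 in mutants and 2.54, 2.84 and 2.90 in controls. The mean log2 differences of these ratios, with the SD over 3 litters, were -0.74 ± 0.0725 for Slit2, -0.68 ± 0.181 for Slit3, -0.62 ± 0.106 for Robo1 and -0.78 ± 0.173 for Robo2. Ntn1 over Ntf3 and Ntn1 over Bdnf were lower in the mutants of litters 1 and 3 but higher in that of litter 2, by 0.18 and 0.94 on the log2 scale. Each of the 4 ratios without overlap had an exact two-sided permutation p of 0.1, the smallest that a test ignoring litters allows, and 0.864 when adjusted over the 36 pairs. The ratio of Ntn1 to other tested rows was lower in every mutant than in any control for 18.2% of rows, which is the background for those 4 of 8 partners. The 4 partners were alike over the columns (r = 0.943 for Slit2 with Slit3 and 0.945 for Robo1 with Robo2), so they are not 4 separate results. These ratios carry no correction for gene span. With the one described below, the log2 change was -0.42 for Ntn1, 0.24 for Slit2, 0.12 for Slit3, 0.01 for Robo1 and 0.11 for Robo2. A ratio within a column shows unequal change and not which gene moved.

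**Figure D2:**
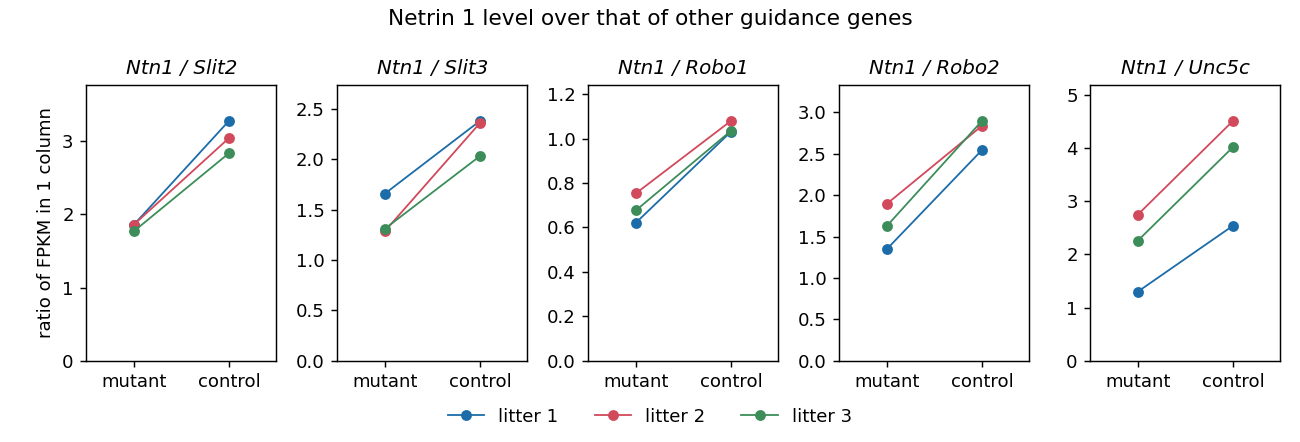
Ratio of the FPKM of Ntn1 to that of 5 other guidance genes in the same column (vertical axes from 0), mutant and control joined by litter. The ratio is lower in the mutant of every litter in all 5 panels, and the groups do not overlap for Slit2, Slit3, Robo1 and Robo2.

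The trophic factors differed less between group means. Gdnf was at 3.21, 4.72 and 3.56 FPKM in mutants, against 3.38, 3.45 and 3.14 FPKM in controls. The mutants of litters 2 and 3 were above all controls and that of litter 1 was within their range. Its log2 change was 0.15 (SE 0.17; limma adjusted p = 1.00, or 0.670 with the block). Ntf3, which encodes neurotrophin 3, was at 17.3, 21.2 and 15.3 FPKM in mutants, against 15.4, 21.7 and 14.9 FPKM in controls. Columns of a litter were close and litter 2 stood highest in both groups. Its mean log2 change was 0.05, with an SE of 0.11 under the block, and the limma adjusted p was 0.857 with the block and 1.00 without it. Bdnf was at 3.30, 2.09 and 2.54 FPKM in mutants, against 2.50, 3.65 and 2.14 FPKM in controls. It was higher in the mutants of litters 1 and 3 and lower in that of litter 2, for a log2 change of -0.04 (SE 0.21; limma adjusted p = 1.00, or 0.945 with the block).

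Slit2 and Bdnf are the 2 members in the authors' deposited list, which by its name holds direct targets that Shox2 represses. The sources used here do not say how it was made. It holds 1352 symbols, and 949 of the 12314 tested rows, or 7.71%, are in it. Shox2 itself is in it, at a log2 change of -2.75. Within litters their mutant minus control differences were 0.06, 0.81 and 0.25 for Slit2 and 0.30, -0.59 and 0.17 for Bdnf, on the log2 scale. The list may rest on these samples, so membership is no independent sign of direction.

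Slit2, Robo2 and Unc5c were the 3 members higher in the mutant of every litter, and 0 members were lower in every litter. Over all tested rows, 15.7% were higher in 3 of 3 litters and 22.3% lower. After the correction for gene span described below, the litter 1 difference was -0.11 for Robo2, -0.01 for Slit2 and 0.11 for Unc5c. The start regions of those 3 genes are shown because they share that pattern in the values as deposited. Each holds 250 bases before and 50 after the annotated start, from RefSeq on GRCm38.p6. Capitals mark TAAT, read on both strands (ATTA on the printed strand), the core letters that many homeodomain proteins recognise. The windows are chr5:47982905-47983204 on the + strand for Slit2, chr16:75447244-75447543 on the - strand for the most upstream of 3 Robo2 starts, and chr3:141465314-141465613 on the + strand for Unc5c.
Slit2: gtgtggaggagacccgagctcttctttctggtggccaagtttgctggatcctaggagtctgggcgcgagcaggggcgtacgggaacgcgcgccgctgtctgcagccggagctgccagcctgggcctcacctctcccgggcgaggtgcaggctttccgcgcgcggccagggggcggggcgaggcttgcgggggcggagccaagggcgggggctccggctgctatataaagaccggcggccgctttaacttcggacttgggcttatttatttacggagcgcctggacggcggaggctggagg
Robo2: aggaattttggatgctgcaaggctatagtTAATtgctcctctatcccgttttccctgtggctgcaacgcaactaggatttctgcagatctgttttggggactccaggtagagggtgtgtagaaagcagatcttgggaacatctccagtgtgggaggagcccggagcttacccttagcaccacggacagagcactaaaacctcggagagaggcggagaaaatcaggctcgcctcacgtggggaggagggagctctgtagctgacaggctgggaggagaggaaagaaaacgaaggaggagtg
Unc5c: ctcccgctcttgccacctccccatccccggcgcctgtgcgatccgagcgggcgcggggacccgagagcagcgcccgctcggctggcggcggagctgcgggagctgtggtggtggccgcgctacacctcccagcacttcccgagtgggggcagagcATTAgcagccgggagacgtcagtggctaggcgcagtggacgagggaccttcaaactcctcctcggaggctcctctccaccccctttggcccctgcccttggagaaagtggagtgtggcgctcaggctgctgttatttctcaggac

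Slit2 has no such match, and the printed windows of Robo2 and Unc5c have 1 each, in a set where 58% of all 32851 RefSeq start windows of 300 bases hold at least 1. Of the 3 Robo2 starts, 2 held TAAT. Across 18 windows of 8 members (Slit2, Slit3, Robo1, Robo2, Unc5c, Gdnf, Ntf3 and Bdnf), 12 held TAAT. The richest were 2 of the 7 Bdnf windows, with 5 matches each. The longer TAATTA, which contains TAAT on both strands, was in 0 of the 18 windows, against 5.29% of all windows. These letters describe the windows and say nothing of binding.

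Differences were larger in litter 2 than in the other litters for most members. On the log2 scale the median mutant minus control difference of the 9 genes was 0.06, 0.65 and 0.19 in litters 1, 2 and 3, against -0.07, -0.03 and 0.00 over all tested rows. For 7 of the 9 genes the litter 2 difference was the highest of the 3 litters. That count was not made over all tested rows, so it has no background to be set against. Without the control of litter 2 the log2 change was 0.21 for Slit2, 0.12 for Slit3, 0.08 for Robo1, 0.23 for Robo2 and 0.14 for Unc5c. Without that control Ntn1 was at -0.51.

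Other features also differed between mutant and control columns, some of them in every litter and not in litter 2 alone. Summed nerve and glia markers (16 of 16 in the table, Sox10, Elavl4 and Stmn2 above 0 in every column) were at 157, 96.0 and 86.5 FPKM in the mutants of litters 1, 2 and 3, against 86.6, 146 and 67.7 FPKM in the controls. These sums were thus lower in the litter 2 mutant than in its control, and higher in the mutants of litters 1 and 3 than in theirs. Of the 16 genes, 5 were higher and 11 lower in the litter 2 mutant. Summed surface ectoderm markers (8 of 8) were at 16.3, 23.8 and 19.8 FPKM in mutants, against 22.9, 43.1 and 26.8 FPKM in controls. That sum was lower in the mutant of every litter, and all 8 genes were lower in the litter 2 mutant. Summed skeletal muscle markers (10 of 10, 1 at 0 in some column) were at 48.9, 47.99 and 46.0 FPKM in mutants, against 27.5, 74.9 and 33.6 FPKM in controls. Of these genes, 3 were higher and 6 lower in the litter 2 mutant. Actc1, the highest of them, was at 20.5 FPKM in that mutant and 40.4 FPKM in its control. Myog was higher in the mutant of every litter. Endothelial markers (8 of 8) were at 11.8, 13.6 and 14.7 FPKM in mutants and 16.6, 20.7 and 16.2 FPKM in controls. Their sum was also lower in the mutant of every litter, with 7 genes lower and 1, Egfl7, higher in litter 2. Red cell markers (5 of 6) were at 712, 382 and 229 FPKM in mutants and 489, 591 and 327 FPKM in controls. Their sum was lower in the mutants of litters 2 and 3, and all 5 genes were lower in litter 2. Leukocyte markers (6 of 6, 2 at 0 in some column) were at 10.2, 19.0 and 11.4 FPKM in mutants and 11.6, 12.6 and 15.5 FPKM in controls, with 5 genes higher and 1 lower in the litter 2 mutant. Sex makeup differed too: the Y-linked gene Eif2s3y was listed at 0 in the litter 2 mutant, against 23.9 FPKM in its control. Kdm5d, also Y-linked, was at 0 against 4.78 FPKM there, and Xist, made in female cells, at 178 against 34.6 FPKM. Every other column held Xist and both Y-linked genes above 0. The part of these features in the differences was not tested. In bulk samples, fewer cells of a type and less RNA per cell cannot be told apart.

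**Figure D3:**
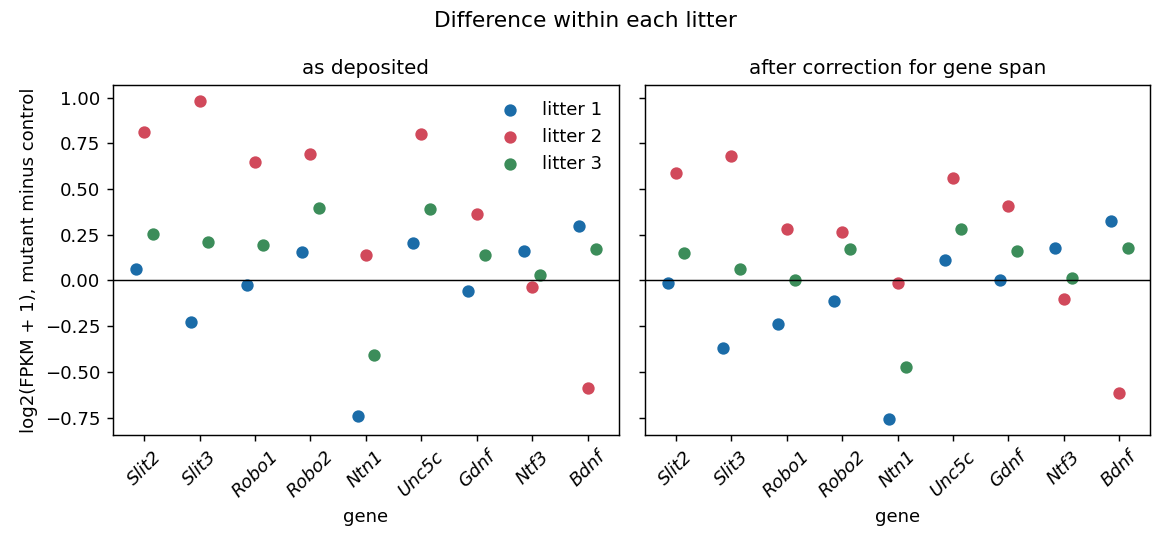
Difference of log2(FPKM + 1), mutant minus control, within litters 1, 2 and 3 for each gene, as deposited (left) and after a correction for gene span (right). Litter 2 is highest for Slit2, Slit3, Robo1, Robo2, Ntn1, Unc5c and Gdnf in both panels, and on the right the litter 2 values of Robo1 and Robo2 are 0.28 and 0.26.

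Of the 9 genes, 6 are long, and length moved with the difference. Robo2 spans 1555468 bases in the RefSeq gene table of GRCm38.p6, Robo1 1019974, Slit3 587052, Unc5c 369361, Slit2 326445 and Ntn1 177463, all 6 in the longest 10% of tested rows with a span. Gdnf, Ntf3 and Bdnf span 27533, 65361 and 52344 bases. Over all tested rows of litter 2, the median log2 difference, mutant minus control, was -0.18 in the shortest 10% by span and 0.19 in the longest 10%. The same medians, shortest then longest, were -0.15 and 0.03 for litter 1, and 0.02 and 0.08 for litter 3. The length of the longest annotated transcript gave the same order in litter 2, with medians of -0.22 and 0.19.

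**Figure D4:**
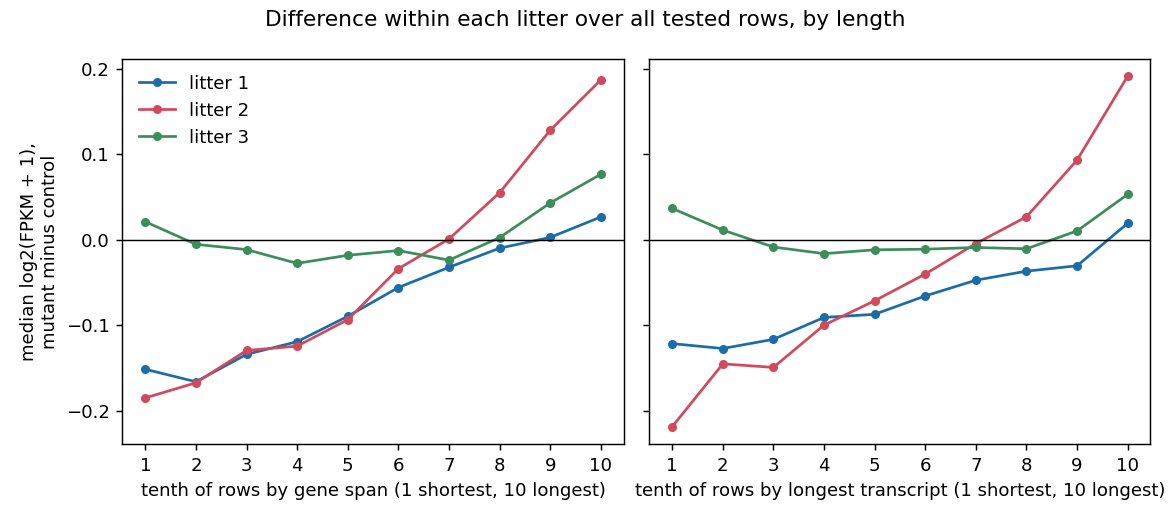
Median difference of log2(FPKM + 1), mutant minus control, in 10 equal bins of all tested rows ordered by gene span (left) or by longest transcript (right), per litter. In litter 2 the median climbs to 0.19 in the longest bin of both panels, and litter 3 is the flattest.

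A trend on log2 gene span was therefore removed from each column, an analysis chosen with the data already in view. The log2 change was then 0.01 for Robo1, 0.11 for Robo2, 0.12 for Slit3, 0.24 for Slit2 and 0.32 for Unc5c. Ntn1, itself long, was then at -0.42. In the limma fit with span correction and litter block the unadjusted p was 0.369 for Robo2, 0.0336 for Unc5c and 0.0314 for Ntn1, and no adjusted p of the 9 genes was under 0.446. Only 41 tested rows were as long as Robo1 or longer, so the trend is thinly supported at that end. Removing a trend on transcript length instead left 0.21 for Robo1, 0.32 for Robo2, 0.32 for Slit3, 0.25 for Slit2, 0.35 for Unc5c and -0.36 for Ntn1. Within litters and after the span correction, the median over the 9 genes was -0.01, 0.28 and 0.15 in litters 1, 2 and 3. The Slit2 difference was -0.01, 0.59 and 0.15, that of Robo2 -0.11, 0.26 and 0.17, that of Unc5c 0.11, 0.56 and 0.28, and that of Ntn1 -0.76, -0.02 and -0.47.

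Other genes of the same pathways came from lists of 43 symbols, of which 39 were in the table and 29 passed the filter. Limma called 0 of them higher and 0 lower at an adjusted p under 0.05, with or without the block. At an unadjusted p under 0.05 it called 1 higher and 2 lower of the 29, against 3.57% of all tested rows in either direction. With the block it called 5 higher and 4 lower, against 11.6%. In 3 of 3 litters 9 were higher and 8 lower, against 15.7% and 22.3% of all rows. Without overlap between groups 2 were higher and 4 lower, against 4.22% and 5.03%. The median log2 change over the 29 was 0.01, against -0.04 over all tested rows. Those named next are the ones with an unadjusted p under 0.05 in either fit, or with no overlap between groups.

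**Figure D5:**
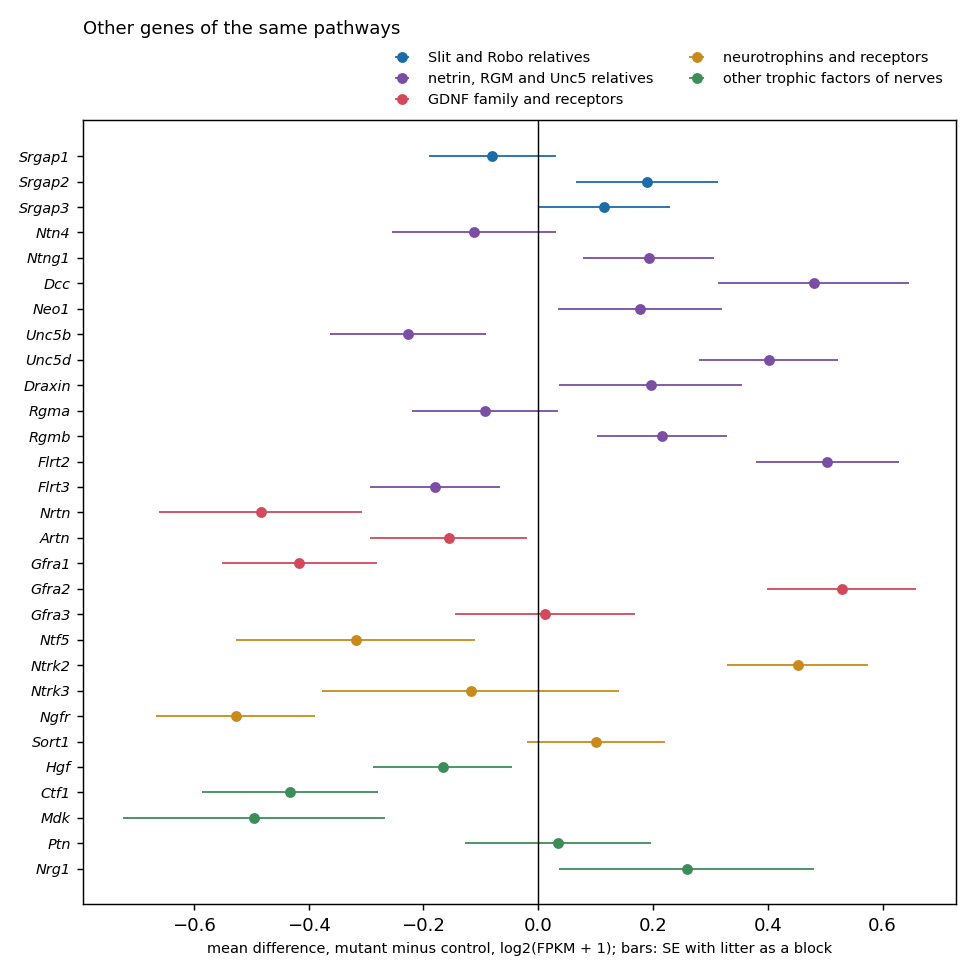
Log2 change, mutant minus control (horizontal axis), of the 29 tested pathway genes outside the set, coloured by list, with bars of 1 SE from the fit with litter as a block. The values run from -0.53 for Ngfr to 0.53 for Gfra2, and no gene passed the adjusted threshold.

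Among relatives and partners of netrin, the median log2 change was 0.19 over 11 tested genes, of which 7 were above 0. Dcc, the netrin receptor for attraction, was at 7.81, 8.70 and 7.95 FPKM in mutants, against 6.42, 4.06 and 6.51 FPKM in controls. Every mutant was above every control, for a log2 change of 0.48 (SE 0.19; limma adjusted p = 1.00, or 0.384 with the block). Unc5d was at 8.60, 7.40 and 8.44 FPKM in mutants, against 7.06, 4.70 and 6.19 FPKM in controls, again without overlap. Unc5b, a netrin receptor best known from endothelium, was at 7.03, 8.66 and 8.35 FPKM in mutants, against 10.5, 8.75 and 9.35 FPKM in controls, and every mutant was below every control. Flrt2, which encodes a membrane ligand of Unc5 receptors, was at 93.1, 61.4 and 54.1 FPKM in mutants, against 71.2, 35.7 and 41.9 FPKM in controls. Flrt2 was higher in 3 of 3 litters, with a log2 change of 0.50 (SE 0.13 with the block; limma adjusted p = 0.229 with the block and 1.00 without it). Dcc and Unc5d are long genes as well, and after the span correction their log2 changes were 0.21 and 0.21, while that of Flrt2 was 0.46. Medians of the other lists were 0.11 over 3 relatives of Slit and Robo, -0.16 over 5 genes of the GDNF family, -0.12 over 5 of neurotrophins and -0.17 over 5 other trophic factors.

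Of the coreceptors of the GDNF family, Gfra1 was lower and Gfra2 higher in the mutant of 3 of 3 litters. Gfra1, the coreceptor of Gdnf, was at 12.6, 15.02 and 14.1 FPKM in mutants, against 20.2, 16.2 and 20.4 FPKM in controls. Every mutant was below every control, for a log2 change of -0.42 (SE 0.15; limma adjusted p = 1.00, or 0.358 with the block). Gfra1 too is a long gene, with a span of 220366 bases, and its log2 change was -0.51 after the span correction. Gfra2, the coreceptor of neurturin, was at 3.17, 7.81 and 7.14 FPKM in mutants, against 2.19, 4.41 and 4.77 FPKM in controls. It was higher in 3 of 3 litters, with a log2 change of 0.53 (SE 0.13 with the block; limma adjusted p = 0.223 with the block and 1.00 without it). Nrtn, the gene of neurturin itself, was at 3.41, 5.97 and 7.79 FPKM in mutants, against 7.21, 9.04 and 7.95 FPKM in controls, lower in 3 of 3 litters but hardly so in litter 3. Ret, the signalling receptor shared by the family, did not pass the filter, at 0.363 to 1.06 FPKM in mutants and 0.287 to 0.565 FPKM in controls.

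Of the neurotrophin receptors, Ngfr was lower and Ntrk2 higher in the mutant of 3 of 3 litters. Ngfr, the receptor common to all neurotrophins, was at 14.9, 24.9 and 21.8 FPKM in mutants, against 26.9, 29.0 and 32.4 FPKM in controls, with every mutant below every control and a log2 change of -0.53 (SE 0.21; limma adjusted p = 1.00, or 0.254 with the block). Ntrk2, the receptor of Bdnf, was at 6.40, 11.7 and 10.04 FPKM in mutants, against 5.24, 7.72 and 6.46 FPKM in controls. It was higher in 3 of 3 litters, by 0.45 on the log2 scale (SE 0.12 with the block; limma adjusted p = 0.276 with the block and 1.00 without it). Ntrk2 is also a long gene, with a span of 327499 bases, and its log2 change was 0.32 after the span correction.

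Of the other trophic factors, Ctf1 and Hgf were lower in the mutant of 3 of 3 litters. Ctf1, the gene of cardiotrophin 1, was at 6.18, 9.75 and 13.4 FPKM in mutants, against 8.68, 17.6 and 14.1 FPKM in controls, and the groups overlapped. Hgf, a growth factor of limb mesenchyme that attracts motor axons and muscle precursors, was at 5.33, 4.48 and 5.55 FPKM in mutants, against 5.65, 5.73 and 6.17 FPKM in controls, and every mutant was below every control by a small margin.

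Genes whose log2(FPKM + 1) followed a member most closely over the 6 columns were looked up among 11017 of the tested rows, those averaging at least 2 FPKM. With 6 columns that share litters, such coefficients describe these columns and carry no test. For Slit2 they were Matn3 (r = 0.995) and Cox7c (r = 0.994), for Slit3 Shroom1 (0.993) and Col9a1 (0.992), for Robo1 Fras1 (0.997) and Ctsc (0.994), and for Robo2 Rnf150 (0.995) and Pappa (0.993). For Ntn1 they were Adamts17 (r = 0.996) and Cluh (0.979), for Unc5c Lrp6 (0.998) and Smg1 (0.997), for Gdnf AU019823 (0.978) and Rab6a (0.965), for Ntf3 H3f3b (0.985) and Dlg3 (0.980), and for Bdnf Nudt5 (0.986) and Triqk (0.979). Between members, r was 0.943 for Slit2 with Slit3 and 0.945 for Robo1 with Robo2. Pairs from different families were nearly as high, at 0.919 for Robo2 with Unc5c and 0.904 for Robo1 with Slit2. It was -0.04 for Ntn1 with Robo2 and -0.89 for Bdnf with Slit3.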

How the data were processed

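RNA was sequenced from sorted cells of mouse limbs. Per the submitters' processing notes, TopHat and Cuffdiff were used on mm9. Per the file headers, each litter was normalised in Cuffdiff, geometric setting, so litters may have been scaled apart. The deposited values were taken as FPKM, a word absent from the header, because Cuffdiff reports that unit. No version, gene annotation or filter is named in those sources, and depth is unknown. Column sums ran from 347708 to 439109 FPKM. The authors' deposited gene list holds symbols only, with no values.

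Columns were grouped by the genotype and litter in the header. Limma (3.58.1, under R 4.3.3) was fitted to log2(FPKM + 1) with the variance following the mean level, over 12314 of 24102 rows at 1 FPKM or more in at least 3 columns, with a threshold of 0.05. The plan was written for all sorted samples and the table holds 6 columns. Litter numbers pair the columns, since the labels give litters by number. Deviations from group means correlated within litters 1, 2 and 3 at 0.873, 0.568 and 0.77 across genes. Nothing in the labels says whether columns come from separate embryos, so p-values measure the spread between these columns only.

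Named genes are the 9 members, Shox2, listed pathway genes with an unadjusted p under 0.05 in either fit or no overlap, and the 2 most alike genes per member. Ratios within columns, corrections for length and Robo3, Robo4, Slit1 and Ret were chosen after values were seen. The members and lists were chosen with earlier results of these data known. Length came from GENCODE vM21 transcripts (97.7% of tested rows) and from the RefSeq gene table (98.0%), as a lowess curve (span 0.3) per column. Both fits and the transcript length correction were tested on simulated data that held no litter effect. The gene span correction was not tested in that way. Permutation tests used scipy 1.17.1. Alternatives were litter as a block, other pseudocounts (0.1 and 0.5), filters, scalings, weights, no trend, each column left out and each litter pair left out. Of 43 pathway symbols, Ntn3, Ntng2, Gfra4 and Cntf matched no row and are not analysed here. A further listed gene is not reported here and is in none of the list counts.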

Additional observations from a re-analysis of the deposited data

How the results depend on the processing

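The 9 members stayed without a call at an adjusted p under 0.05 in every alternative run, except Ntn1 in the replicate block without the litter 2 pair. The replicate block for litter left 0 calls over all rows, with 1433 rows at an unadjusted p under 0.05 against 439 without it, and changed no call of a member. Column weights called 15 rows and put Bdnf at 0.039, above 0. Leaving out 1 column or 1 litter pair gave between 0 and 534 calls over all rows, the highest without the litter 2 pair, a fit with 1 residual degree of freedom per row before moderation. Over these the log2 change ran from -0.58 to -0.13 for Ntn1, -0.0087 to 0.60 for Slit3, -0.070 to 0.21 for Ntf3, -0.21 to 0.24 for Bdnf and -3.58 to -2.32 for Shox2, which passed without the litter 3 mutant, and with the block without the litter 2 or the litter 3 pair. The signs of Ntf3 and Bdnf turned when single columns were left out, and that of Slit3 only without the litter 2 pair; the cause was not tested. The ranges for the others were 0.16 to 0.53 for Slit2, 0.08 to 0.42 for Robo1, 0.23 to 0.59 for Robo2, 0.14 (without the litter 2 control) to 0.81 (without the litter 1 control) for Unc5c and 0.02 (without the litter 2 mutant) to 0.25 for Gdnf. Slit2, Robo1, Robo2, Unc5c and Gdnf stayed above 0 and Ntn1 below 0 in every alternative run, though Robo1 was at 0.01 with the span correction, and Gdnf was not tested at a mean of 5 FPKM or more, nor was Bdnf. With unknown depth, no interval can be given for single values of low genes such as Gdnf and Bdnf.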
